A study of Mus musculus with 9 samples.

Results

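Mitochondrial ribosomal proteins build the mitoribosome, the ribosome inside mitochondria. It makes the few inner-membrane proteins that mitochondrial DNA encodes, all of them subunits of the respiratory chain and ATP synthase. Its RNAs come from mitochondrial DNA, whereas every one of its proteins is encoded in the nucleus, made in the cytosol and imported. The kidney tubule depends on this supply, since solute reabsorption runs on mitochondrial ATP. The genes examined here were all rows whose symbol is Mrpl (large subunit) or Mrps (small subunit) followed by a digit, which gave 77 of 23282 symbols, 48 Mrpl and 29 Mrps.

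The tissue was kidney of C57BL/6 mice, with 5 Bmal1 -/- libraries (here Bmal1 KO) and 4 wildtype libraries (wild type), read by 3′ tag sequencing. Bmal1 (symbol Arntl) is the transcription factor that pairs with Clock or Npas2 at E-box sites to drive the circadian clock. The labels give no deleted region, driver line, hour of sampling, sex or age, and do not state that libraries came from separate animals, so the p-values cover variation among libraries, which may be technical. Values are log2(x + 1), where x stands for the authors' adjusted read count, brought near a common library size; x summed to 11765219 to 12936926 per Bmal1 KO library and 12407284 to 13486444 per wild-type library. A 3′ tag is counted about once per transcript, so levels of different genes on this scale are not set by transcript length.

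Arntl had log2 values of 5.65 to 5.99 in Bmal1 KO and 6.26 to 7.06 in wild type (log2 fold change -0.84, limma adjusted p = 0.0112). As the deleted region is not given, a 3′ tag count may not show the deletion itself, so this is a limited check of the labels. Kidney identity was clear from proximal tubule genes, with the phosphate transporter Slc34a1 at 14.58 to 15.03 in Bmal1 KO and 14.96 to 15.22 in wild type. Markers of several cell types differed with genotype. Over all 13481 genes tested, 6.16% were called higher and 8.2% lower (limma, adjusted p under 0.05). Proximal tubule markers were lower in 6 of 14 cases and higher in none. Their summed shares were 3.71% to 3.91% of x in Bmal1 KO and 5.09% to 6.18% in wild type. Most of each sum is Kap, so the shares largely follow that gene. Kap had log2 values of 18.34 to 18.54 in Bmal1 KO and 18.82 to 19.41 in wild type, and was not called (limma adjusted p = 0.0604). Of 12 distal nephron markers 7 rose and none fell. Counts were 4 of 10 higher for endothelium, 2 of 9 (22.2%) for stroma and 6 of 8 for urothelium, none lower. For immune cells 1 of 9 (11.1%) was lower, close to the share of all genes. Red cell genes took 0.899% to 3.56% of x in Bmal1 KO and 0.621% to 1.55% in wild type, with 0 of 7 called by limma (6 at an unadjusted p under 0.05). Rn45s, the ribosomal RNA precursor, took 6.83% to 14.4% of x in Bmal1 KO and 5.07% to 11.3% in wild type. The part of these shifts in the results was not tested. In whole-kidney RNA, fewer cells of a type and less RNA per cell cannot be told apart.

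RefSeq promoters on GRCm38.p6 (250 bases before to 50 after the start) were matched by symbol for 68 of the 77 genes, and Mrpl4, Mrpl13, Mrpl15, Mrpl19, Mrpl38, Mrpl54, Mrps28, Mrps34 and Mrps35 were not matched. Both strands were searched for 5 letter strings. The ETS core CCGGAAGT, read by the GABPA factor of nuclear genes for mitochondrial proteins, was in 12 of 68 (17.6%), against 8.66% of 10190 tested genes with a promoter and 4.31% of all 27025. The NRF1 core, in which the fifth base of the NRF1 string is left free, was in 13 (19.1%, against 11% and 5.19%), and its exact form, capitalised for Mrpl9 further on and a subset of those, in 3 (4.41%, against 2.22% and 1.07%). The YY1 string, capitalised for Mrps11, was in 5 (7.35%, against 2.3% and 0.995%). The E-box CACGTG, a palindrome and the element that Bmal1 itself binds, was also in 5 (7.35%, against 11.5% and 8.09%). A match of letters is not evidence of a bound site.

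The 5 E-box matches are shown because Bmal1 is the deleted factor, with 10 bases on either side and the E-box in capitals. They lie on GRCm38.p6 at chr17:46646080-46646105 (+ strand, Mrpl2), chr4:155802835-155802860 (+, Mrpl20), chr13:73330956-73330981 (+, Mrpl36), chr4:107067013-107067038 (- strand, Mrpl37) and chr5:100798586-100798611 (+, Mrps18c). The first E-box base is at -139, -33, -43, -162 and -163 from the RefSeq start, in that order. GENCODE starts Mrpl36 at 73328513, upstream of its RefSeq start of 73331009. The 100 bases before that RefSeq start, which hold the E-box, are annotated as Mrpl36 exon.
Mrpl2: tgccgcccgtCACGTGacccgagcaa
Mrpl20: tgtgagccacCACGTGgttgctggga
Mrpl36: cacgtcatccCACGTGaccttacgcc
Mrpl37: caagtttcttCACGTGtggcacttca
Mrps18c: agccccgggtCACGTGacttccggcc

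Further matches are shown for Mrpl43 and Mrps11, the called genes, for Mrpl51 and Mrpl9, which are among the next by p, and for Mrps18c, whose match adjoins an E-box. The ETS core stands in capitals for Mrpl43 (chr19:45006437-45006464, - strand), Mrpl51 (chr6:125192100-125192127, +) and Mrps18c (chr5:100798592-100798619, -), on the strand opposite to the E-box line above. The capitals mark the NRF1 string for Mrpl9 (chr3:94443298-94443327, +) and the YY1 string for Mrps11 (chr7:78783012-78783041, -, opposite to the gene). That YY1 match lies downstream of the RefSeq start of the neighbour Mrpl46 (78783089, - strand) and on the Mrpl46 strand. Of the 100 bases before the RefSeq start of Mrps11, 71 are annotated as exon of Mrpl46 or Mrps11. The bases before the RefSeq start of Mrpl51 that hold its match are annotated as Mrpl51 exon.
Mrpl43: aaccccggaaCCGGAAGTcaccggttag
Mrpl51: aggggctaaaCCGGAAGTatttgactgg
Mrps18c: gcttcccgggCCGGAAGTcacgtgaccc
Mrpl9: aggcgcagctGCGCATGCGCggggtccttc
Mrps11: ggaagacagaAAGATGGCGGcgcccgtagg

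Genes with and without a given string had close median fold changes. The median log2 fold change, Bmal1 KO minus wild type, was -0.09 over the 5 genes with an E-box and -0.02 over the other 63 matched genes. It was 0.02 with the ETS core and -0.02 without, 0.02 with the NRF1 core and -0.03 without, and -0.05 with the YY1 string and -0.02 without.

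The genes were also compared by position, using GENCODE starts. The GENCODE start of Mrpl36 lies upstream of the RefSeq start used for its promoter. In the GENCODE annotation of GRCm38, 33 of the 77 genes (42.9%) had a protein-coding gene on the other strand whose start lay within 1000 bases of theirs, head to head, against 15.5% of 12420 tested protein-coding genes. Partners included the respiratory subunits Ndufs6 (beside Mrpl36) and Ndufb5 (Mrpl47), the proteasome subunit Psma2 (Mrpl32), the chaperonin subunit Tcp1 (Mrpl18), the cytosolic ribosomal protein Fau (Mrpl49), the mitochondrial seryl-tRNA synthetase Sars2 (Mrps12), the mitochondrial DNA helicase Twnk (Mrpl43) and, for Mrps11, the large subunit gene Mrpl46. The median log2 fold change was 0.01 for members with such a partner and -0.02 for the others.

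Tag counts, read here as transcript levels, were far from equal although most of these proteins are built into the particle once. The annotation and strand setting are not given, so differences between genes may partly lie in how reads were assigned, which was not tested. Mean x over the 9 libraries ran from 65.9 for Mrpl21 to 4520 for Mrpl12, a 68.6-fold range, with quartiles at 482 and 1150 around a median of 777. The 3 most abundant were Mrpl12, the stalk protein that contacts translation factors (mean log2 level 12.14), Mrpl34 (11.84) and Mrps21 (11.61). The least abundant were Mrps27 (7.41), a pentatricopeptide repeat protein, Mrpl15 (6.77) and Mrpl21 (6.04). Mrpl12 had log2 values of 12.02, 12.19, 11.98, 12.23 and 12 in Bmal1 KO, against 12.17, 12.40, 12.11 and 12.14 in wild type. Mrpl21 had 6.02, 6.07, 5.62, 6.17 and 5.56 in Bmal1 KO, against 6.04, 6.09, 6.45 and 6.33 in wild type. In both genes the genotypes overlap. The order of levels was nearly the same in both genotypes (Spearman 0.98 between Bmal1 KO means and wild-type means across the 77 genes, which are not independent replicates). Median levels were 9.78 for Mrpl and 9.36 for Mrps, against 11.45 for 79 cytosolic ribosomal protein genes and 12.37 for 79 nuclear genes of oxidative phosphorylation.

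**Figure D1:**
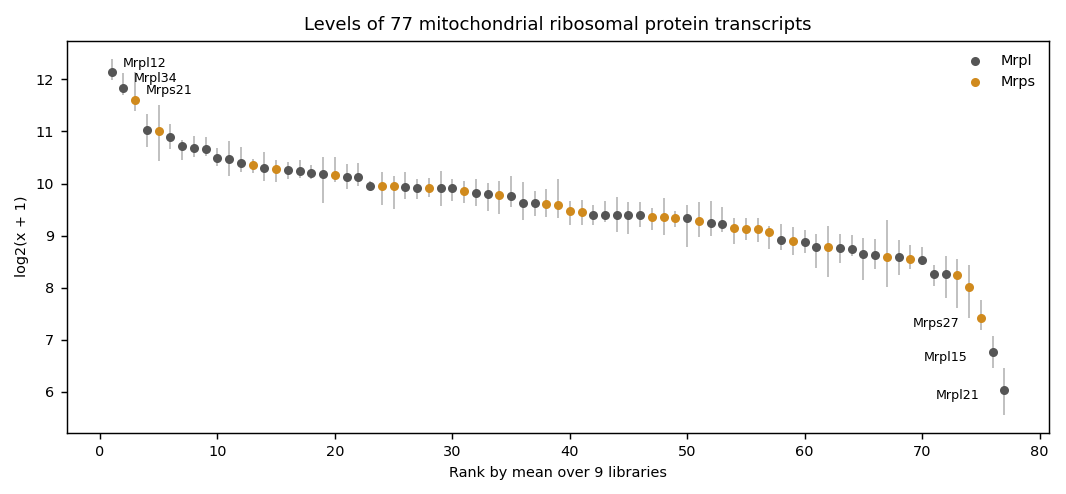
Mean log2(x + 1) over the 9 libraries (points) of the 77 genes in order of level, with vertical lines from the lowest to the highest library; dark points are Mrpl, orange points Mrps. Mrpl12 leads at 12.14 and Mrpl21 is last at 6.04, with both subunits spread along the order.

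Few mitochondrial ribosomal protein transcripts differed between Bmal1 KO and wild-type kidneys. All 77 genes passed the filter (x of at least 10 in at least 4 libraries), and all but Mrpl21 had a mean x of 100 or more. Mrps11 rose and Mrpl43 fell (limma, adjusted p under 0.05 over all 13481 genes tested), together 2.6% of the set. Over all genes tested 14.4% were called, 6.16% higher and 8.2% lower. Without adjustment, p was under 0.05 for 12 of 77 (15.6%), against 27.5% of all genes. The genotypes did not overlap in 2 of the 77 genes, both lower in Bmal1 KO, against 14.3% of all genes tested. The median log2 fold change was -0.020, with quartiles at -0.152 and 0.085, against 0.000, -0.214 and 0.247 over all genes; 36 estimates were above 0 and 41 below. Scaling each library by a single factor moves the set and all genes alike by construction, so it cannot test the set's place among all genes. The set's median was then 0.038 against 0.058 for all genes with library totals, and 0.041 against 0.061 with upper quartiles. After quantile normalization the set's median lay above that of all genes, at 0.051 against 0.003.

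The data were precise enough to bound most changes. For 68 of the 77 genes (88.3%) the 95% interval of the fold change lay within 1.5-fold in either direction (0.585 on the log2 scale), which held for 45.3% of all genes tested. The 9 whose interval reached 1.5-fold were Mrpl9, Mrpl15, Mrpl21, Mrpl23, Mrpl36, Mrps6, Mrps7, Mrps10 and Mrps11. No estimate reached 1.5-fold itself (0 of 77), against 16.2% of all genes. The median standard error was 0.119 in the set and 0.167 over all genes, at median levels of 9.58 and 7.79. Of the oxidative phosphorylation genes 93.7% had an interval within 1.5-fold, so such bounds are not particular to this set.

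**Figure D2:**
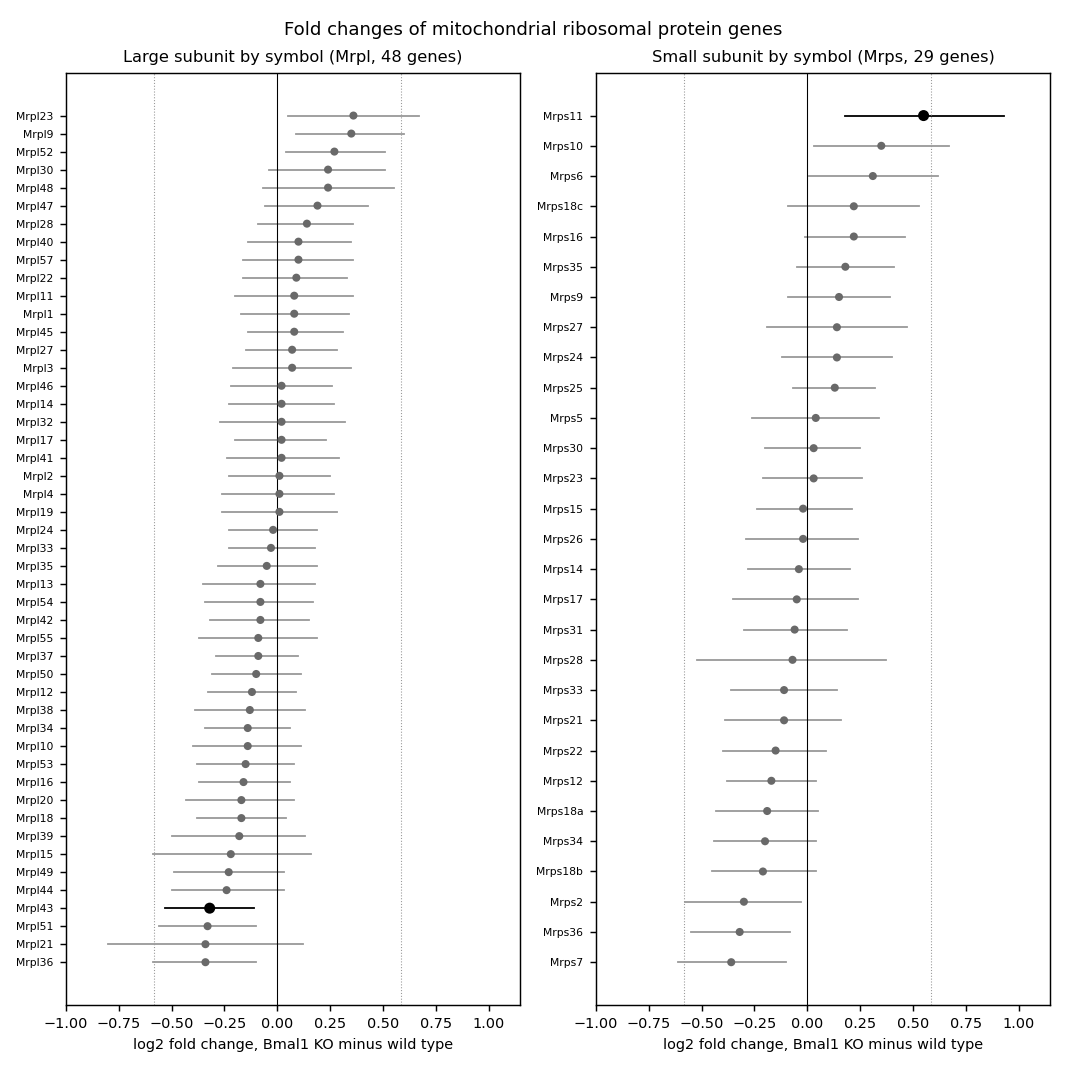
Log2 fold change of each gene, Bmal1 KO minus wild type (points), with its 95% interval from limma (lines), Mrpl genes left and Mrps genes right; black marks the 2 genes with adjusted p under 0.05 and dotted lines mark 1.5-fold. Estimates run from -0.36 to 0.55 around 0, and 68 of 77 intervals stay between the dotted lines.

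Mrpl43 encodes a protein of the large subunit that bacteria lack. Its gene lies on chromosome 19 (45004829 to 45006442, - strand, GRCm38), and an exon of Twnk on the other strand overlaps its exons but not its last 500 bases. Its log2 values were 9.83, 9.71, 9.95, 9.76 and 9.71 in Bmal1 KO, against 10.23, 10.17, 10.04 and 10.01 in wild type. All 5 Bmal1 KO libraries lay below all 4 wild types. The log2 fold change was -0.32 (SE 0.10, interval -0.53 to -0.11, limma adjusted p = 0.0416). The call was lost on leaving out any library other than knockout 3 (adjusted p 0.0551 to 0.114 over those 8) and under each rescaling (0.107 to 0.17), with the estimate below 0 throughout. Twnk, listed as Peo1, had a log2 fold change of 0.19 (adjusted p = 0.578).

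Mrps11 encodes a small subunit protein with a bacterial counterpart. Its gene is on chromosome 7 (78783119 to 78792989, + strand, GRCm38). Log2 values were 8.32, 8.43, 8.31, 8.03 and 8.21 in Bmal1 KO, against 8.38, 7.45, 7.42 and 7.56 in wild type. Wild type 1 lay within the Bmal1 KO range and the other 3 wild types below it. The log2 fold change was 0.55 (SE 0.18, interval 0.18 to 0.93, limma adjusted p = 0.0464). Without wild type 1 it was 0.78 (adjusted p = 0.00182), whereas without wild type 2, 3 or 4 or knockout 1, 2, 3 or 5 the gene did not pass (0.0697 to 0.137). Its head-to-head neighbour Mrpl46, with 9.67, 9.45, 9.36, 9.28 and 9.30 in Bmal1 KO and 9.55, 9.42, 9.27 and 9.34 in wild type, did not pass, at 0.02 on that scale (SE 0.11, limma adjusted p = 0.943). Their RefSeq starts leave 41 bases between them, and neither has an exon of the other within its last 500 bases.

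Of the next 5 genes by p, 4 had estimates below 0. Mrpl51, a large subunit protein specific to mitochondria, had 10.57, 10.47, 10.18, 10.30 and 10.15 in Bmal1 KO, against 10.82, 10.54, 10.68 and 10.62 in wild type (log2 fold change -0.33, SE 0.11, limma adjusted p = 0.0517). Mrpl36, the counterpart of a small zinc-binding bacterial protein, had 9.41, 9.21, 9.14, 9.06 and 9.36 in Bmal1 KO, against 9.74, 9.67, 9.39 and 9.52 in wild type (-0.34, SE 0.12, limma adjusted p = 0.0547). In both, 1 Bmal1 KO library lay above the lowest wild type. Mrps7, a small subunit protein bound to ribosomal RNA, had 9.54, 9.33, 9.49, 9.33 and 9.42 in Bmal1 KO, against 10.09, 9.65, 9.87 and 9.51 in wild type (-0.36, SE 0.12, limma adjusted p = 0.0559); Mif4gd on the other strand covers part of its 3′ end, so its reads are uncertain. Mrpl9, with a bacterial counterpart, had 8.56, 8.91, 8.80, 8.63 and 8.74 in Bmal1 KO, against 8.59, 8.37, 8.25 and 8.33 in wild type (0.35, SE 0.12, limma adjusted p = 0.0695). Only wild type 1 reached the Bmal1 KO range there.

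Mrps36 was the other gene whose genotypes did not overlap. Despite its name, its protein is a component of the alpha-ketoglutarate dehydrogenase complex rather than of the mitoribosome. It had 8.89, 8.81, 8.68, 8.62 and 8.79 in Bmal1 KO, against 9.17, 9.15, 9.05 and 8.94 in wild type. The log2 fold change was -0.32 (SE 0.11, interval -0.55 to -0.08, limma adjusted p = 0.0660), past the threshold in none of 20 alternatives.

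**Figure D3:**
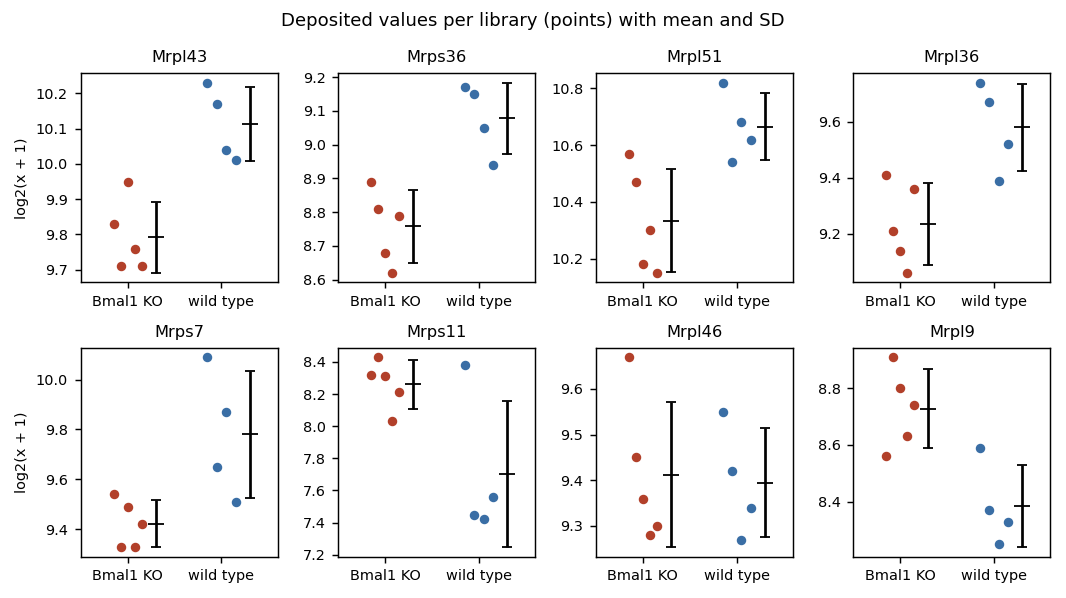
Deposited log2(x + 1) values of 8 genes, Bmal1 KO libraries (red, 5) left of wild type (blue, 4), with mean and SD in black; each panel has its own axis. Mrpl43 and Mrps36 separate by genotype, wild type 1 of Mrps11 sits at 8.38 beside the Bmal1 KO points, and Mrpl46 overlaps fully.

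Among the remaining genes with the highest and lowest estimates none passed. Mrpl23, at the exit of the peptide tunnel, had 8.25 to 8.61 in Bmal1 KO and 7.81 to 8.36 in wild type (log2 fold change 0.36). Mrps10 had 8.22 to 8.56 in Bmal1 KO and 7.61 to 8.35 in wild type (0.35). Mrps6 had 10.84 to 11.51 in Bmal1 KO and 10.44 to 11.14 in wild type (0.31); its exons overlap those of Slc5a3 on the same strand, so the split of reads is uncertain. Mrpl21 was at -0.34 with an interval of -0.80 to 0.12, and it is the least abundant member. Another coding gene has an exon within the last 500 bases of 7 of the 77 genes, Mrpl19, Mrpl24, Mrpl49, Mrpl53, Mrps7, Mrps25 and Mrps34.

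Large and small subunit genes had the same median fold change. The median log2 fold change was -0.020 for Mrpl (48 genes, quartiles -0.145 and 0.081) and -0.020 for Mrps (29 genes, -0.153 and 0.140). In each library the mean level of Mrpl genes exceeded that of Mrps genes, by 0.133 to 0.215 in Bmal1 KO and 0.178 to 0.244 in wild type, on the log2 scale. The symbols of 2 Mrps genes name proteins that sit in the large subunit. Mrps30 had 9.22 to 9.48 in Bmal1 KO and 9.16 to 9.45 in wild type (log2 fold change 0.03), and Mrps18a was at -0.19 (limma adjusted p = 0.299). With both moved to the large subunit and Mrps36 left out, the medians were -0.020 and -0.018. The 46 genes listed as having a bacterial counterpart had a median of 0.008 and the 30 listed as specific to mitochondria -0.085, with 1 call in each. All of those 30 genes had an interval within 1.5-fold, as did 37 of the 46. Mrps18a (-0.19) and Mrps18b (-0.21) were counted among the 30, although Mrps18c of the same family was among the 46. The 2 lists are therefore not a clean split by ancestry, and the difference of medians depends partly on that placing.

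The 77 genes together took 0.585% ± 0.0303 of x in Bmal1 KO (SD, n = 5) and 0.578% ± 0.0390 in wild type (SD, n = 4). Relative to each gene's mean, the median of the set was 0.053, 0.050, -0.045, -0.021 and -0.062 in Bmal1 KO, against 0.152, 0.095, -0.104 and -0.044 in wild type. The genotypes overlap, and wild types 1 and 3 are the extremes. Cytosolic ribosomal protein genes, counted the same way, had 42 of 79 higher and none lower, with a median log2 fold change of 0.367, and took 3.14% ± 0.191 of x in Bmal1 KO against 2.33% ± 0.279 in wild type. Genes of oxidative phosphorylation had 1 of 79 higher and none lower, with a median of 0.053.

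**Figure D4:**
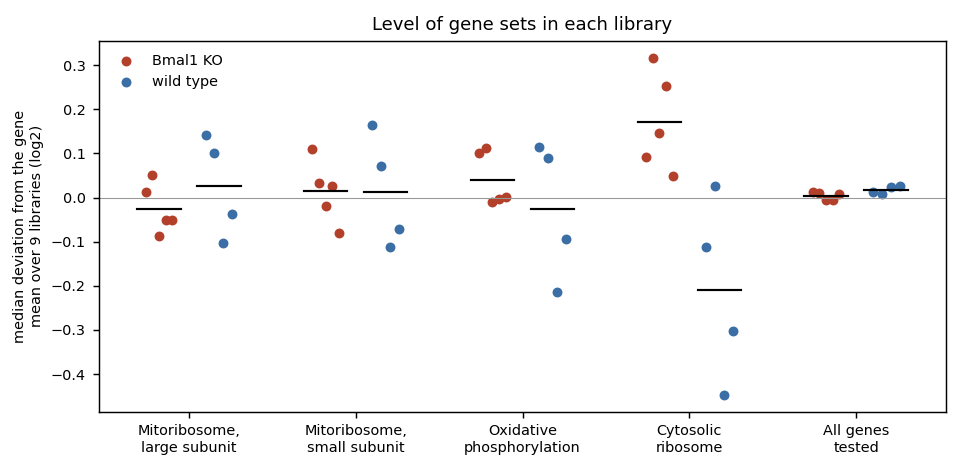
Median deviation of each gene set from its genes' means over the 9 libraries (log2), 1 point per library, Bmal1 KO (red) left of wild type (blue), bars at the genotype means. Both mitoribosome subunits and oxidative phosphorylation genes overlap between genotypes, whereas the cytosolic ribosome lies at 0.048 to 0.317 in Bmal1 KO and -0.447 to 0.026 in wild type.

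Another 6 mitoribosome proteins carry other names, and 0 of them were called by limma, nor was any at an unadjusted p under 0.05. They are Dap3, Chchd1, Aurkaip1, Ptcd3, Gadd45gip1 and Ict1, the last a release factor built into the large subunit, with a median of 0.086. Of 105 tested genes in these and the following lists of mitochondrial function, 1 rose and 5 fell (5.71% called, against 14.4% of all genes). Of 12 translation factors 2 fell (16.7%). Gfm1, the elongation factor that moves the mitoribosome along its mRNA, had 9.05, 8.70, 8.97, 8.93 and 8.81 in Bmal1 KO, against 9.90, 9.44, 9.68 and 9.73 in wild type. All 5 Bmal1 KO libraries lay below all wild types, and the log2 fold change was -0.79 (SE 0.12, limma adjusted p = 0.000174), past the threshold in all 20 alternatives. Gfm2, which recycles the mitoribosome after termination, fell too (-0.41, SE 0.13, limma adjusted p = 0.0428), past it in 5 of 20 and, on leaving out 1 library, without knockout 1 or 5 only; its count is uncertain.

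Of 31 genes for mitoribosome assembly and mitochondrial RNA 1 fell, Lrpprc, which stabilises mitochondrial mRNAs (-0.52, SE 0.15, limma adjusted p = 0.0251), with 11.76, 11.50, 11.54, 11.38 and 11.28 in Bmal1 KO, against 11.81, 11.60, 12.47 and 12.16 in wild type. A list of 22 genes held mitochondrial tRNA synthetases and the glutamine amidotransferase (Gatb, Gatc and Qrsl1). Of these 1 fell, Lars2, the synthetase for leucine (-0.52, SE 0.16, limma adjusted p = 0.0393). The median of these 22 was -0.192, and 18 estimates were below 0. Of 11 tested genes for transcription and replication of mitochondrial DNA 0 were called by limma (3 at an unadjusted p under 0.05), and the RNA polymerase Polrmt was at -0.46 (limma adjusted p = 0.125). Among 10 regulators of nuclear genes for mitochondrial proteins the transcription factor Myc rose, with 3.96, 4.07, 4.09, 5.08 and 5.04 in Bmal1 KO, against 2.82, 0.13, 1.96 and 4.06 in wild type. The log2 fold change was 2.21 (SE 0.66, limma adjusted p = 0.0324), the levels are low and wild type 4 lies within the Bmal1 KO range. All 5 Bmal1 KO libraries but only wild type 4 had x of at least 10, so Myc passed the filter through the Bmal1 KO libraries. The size of the estimate depends on values near 0, such as 0.13 in wild type 2. With 5 in place of 1 added to x it was 1.41, and over the 19 alternatives it ran from 1.34 to 2.81. Gabpa, which reads the ETS core above, was at -0.39 (limma adjusted p = 0.106) with all 5 Bmal1 KO libraries below the wild types, Nrf1 at 0.25 (0.421) and the coactivator Ppargc1a at 0.05 (0.859). Of 13 general mitochondrial genes 1 fell, Hspd1, the matrix chaperonin (-0.47, SE 0.10, limma adjusted p = 0.00411). Of 20 alternatives Lrpprc passed in 9 and Lars2 in 7, and Myc in 10 of 19. Quantile normalization and both scalings to totals ended the call of Lrpprc (adjusted p 0.0687 to 0.0891), and all 4 rescalings that of Lars2 (0.0673 to 0.0901). Lrpprc also lost its call without wild type 3 or 4 or knockout 2, 4 or 5 (0.0514 to 0.094), Lars2 without wild type 1, 3 or 4 or knockout 3 or 5 (0.0641 to 0.110), and Myc on leaving out any library other than wild types 1 and 4 and knockout 1 (0.0525 to 0.0845).

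Among tested head-to-head partners 5 of 30 were called (16.7%), against 14.4% of all genes. They were Mrps11 itself, Fau (0.40, limma adjusted p = 0.0465), the kinesin light chain Klc4 beside Mrpl2 (-0.48, limma adjusted p = 0.00746), Rab6a beside Mrpl48 (-0.37, limma adjusted p = 0.0314) and Eme2 beside Mrps34 (-0.49, limma adjusted p = 0.0368), named after their values were seen. Mrpl49, Mrpl2, Mrpl48 and Mrps34, the members beside the last 4, were at -0.23, 0.01, 0.24 and -0.20, none called.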

How the data were processed

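Kidney RNA from 5 Bmal1 KO and 4 wild-type libraries was extracted with Trizol and read with the Lexogen QuantSeq 3′ kit, per the labels' protocols. Bowtie2, bedtools and mm10 appear in the submitters' processing notes; the sources used here do not give the normalization, annotation or strand setting. The deposited values are log2(x + 1) with 3 decimals, taken from the values themselves to be adjusted read counts, so raw depth is unknown. Each gene was tested with limma 3.58.1 (R 4.3.3; genotype as single term, prior variance following mean expression, two-sided, Benjamini-Hochberg over 13481 genes, threshold 0.05). The filter was x of at least 10 in at least 4 libraries. Intervals are 95% limits from the moderated fit, unadjusted for the number of genes. The model was tested on simulated data. The members and lists were chosen with earlier results of these data known. Named members are those called, the 5 highest and 5 lowest fold changes, the 3 most and least abundant, and Mrps30, Mrps18a and Mrps36; Mrpl46 and promoter or neighbour examples were chosen after values were seen. Python 3.11.15 with pandas 2.3.3 made the summaries. GENCODE M21 and RefSeq GRCm38.p6 gave positions and promoters.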

Additional observations from a re-analysis of the deposited data

Results flagged for a closer look

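Within-genotype values were screened for a library far from the others in 52 groups, of which chance flags about 1 in 20. In 2 groups a library stood apart. Mrps11 was 8.38 in wild type 1, with the other 3 wild types at 7.42 to 7.56. Hspd1 was 12.45 in knockout 1, with the other 4 knockouts at 12.18 to 12.23.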

How the results depend on the processing

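Calls among the 77 genes were few under all 20 alternatives and changed identity with the setting: 9 genes passed somewhere and 68 nowhere. The counts, 1 higher and 1 lower as reported, were 3 and 0 with quantile normalization and also with upper-quartile factors, 2 and 0 after scaling to totals, and 4 and 0 with totals taken without Rn45s, where the median of the set was 0.085 and that of all genes 0.105. Unfiltered, 0 were higher; at a mean x of at least 50, 3 were lower. Without wild type 2 and knockout 4, and with no trend in the prior variance, both counts were 0. With Rn45s as a covariate 0 were lower and the large minus small subunit median difference was -0.039. Leaving out 1 library gave 0 to 2 higher, 0 to 3 lower, a set median of -0.073 to 0.021 and a subunit difference of -0.047 to 0.015. Of 105 mitochondrial genes in the other lists, 1 higher and 5 lower as reported, leaving out 1 library gave 0 to 1 and 2 to 9. Lower calls there were 3 without a filter, with quantile normalization or with upper-quartile scaling, and 2 with either total scaling, the Rn45s covariate or no variance trend. Higher calls were 0 with quantile normalization, without wild type 2 and knockout 4 or with no variance trend. With the total without Rn45s there were 2. At a mean x of at least 50 there were 0, because Myc was then not among the 100 genes tested. The cause of the other differences was not tested.

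With the replicate number as a block, 0 members were higher and 1 lower, and 1 other gene was higher and 3 lower. The set median was -0.009 and the subunit difference 0.005. Knockout 5 has no wild type of its number, so it adds nothing to these estimates. Both values equal those found on leaving out knockout 5. Little pairing by number was seen. Correlations of same-numbered deviations were 0.151, 0.000909, -0.00701 and 0.0407, and 3 of 8 samples correlated best with their own number. This check cannot exclude a pairing. Raw depth is unknown, so the read support of Mrpl21 and Mrpl15, the least abundant members, cannot be stated.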
